A study of Mus musculus with 6 samples.

Results

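A set of 10 genes that carry glucose into the cell, break it down to pyruvate and interconvert pyruvate and lactate was followed across 6 RNA-seq libraries of mouse embryonic stem cells. They were taken by symbol from the deposited table: the glucose transporters Slc2a1 and Slc2a3, the hexokinases Hk1 and Hk2, the aldolases Aldoa and Aldoc, the phosphoglycerate mutase Pgam1, the pyruvate kinase Pkm, and the lactate dehydrogenases Ldha and Ldhb. All 10 were found among the 25170 symbols of the table, and all 10 passed the minimum of 1 FPKM on average that left 11785 genes for testing. FPKM scales the fragments of a gene to its transcript length and to the size of the library, so levels can be compared between genes. Gene positions below are those of GENCODE on GRCm38.

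The cells were E14, an established mouse embryonic stem cell line, either wild type (WT) or knocked out for Hnrnpf, which encodes an RNA-binding protein that takes part in splicing. Every group was grown in medium with fetal bovine serum, either with LIF, the cytokine that keeps mouse embryonic stem cells self-renewing, or for 4 days after its removal. The 4 groups are WT with LIF (1 library), knockout with LIF (2 libraries), WT without LIF (1 library) and knockout without LIF (2 libraries). The WT values therefore have no replicate error, and the spread used in the tests comes from the knockout libraries or is shared between media. Per the labels, the knockout libraries of a medium are numbered 1 and 2. Whether they are clones or separate cultures is not stated, nor whether library 1 (or 2) of both media came from a single clone. P-values therefore speak only of how far these libraries differ, and that spread may be technical. Hnrnpf itself stood at 342 FPKM in WT with LIF and 335 in WT without LIF, and in the 4 knockout libraries at 8.28% to 28.9% of WT in the same medium.

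Glucose enters cells through facilitative transporters and is trapped by hexokinase, and the aldolase, mutase and pyruvate kinase steps lie on the way from the phosphorylated sugar to pyruvate. Lactate dehydrogenase then interconverts pyruvate and lactate; subunits from Ldha favour lactate formation and subunits from Ldhb are typical of tissues that oxidise lactate. Pluripotent cells are known for a high glycolytic rate, and several of these genes are textbook targets of the hypoxia-inducible factors and of Myc.

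The 10 genes together made up between 1.16% and 1.44% of the summed FPKM of a library. Pkm, Aldoa and Ldha were the most abundant in every library, at 1082 to 2276 FPKM, and ranked between 15 and 46 among all symbols. Slc2a1, Slc2a3, Ldhb and Pgam1 formed a middle tier between 137 and 684 FPKM. Hk2 was lower at 30.8 to 57.3 FPKM, and Hk1 and Aldoc were the lowest at 7.76 to 22.2 and 6.61 to 17.6 FPKM. Within the tiers the order changed: Aldoa was the highest of the 10 in WT with LIF and in knockout library 1 with LIF, and Pkm in the other 4 libraries. Neighbours in this order often overlapped; in knockout cells with LIF, for example, Slc2a3, Ldhb and Slc2a1 stood at 354 ± 53.6, 300.4 ± 39.7 and 307 ± 16.7 FPKM (SD, n = 2).

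**Figure D1:**
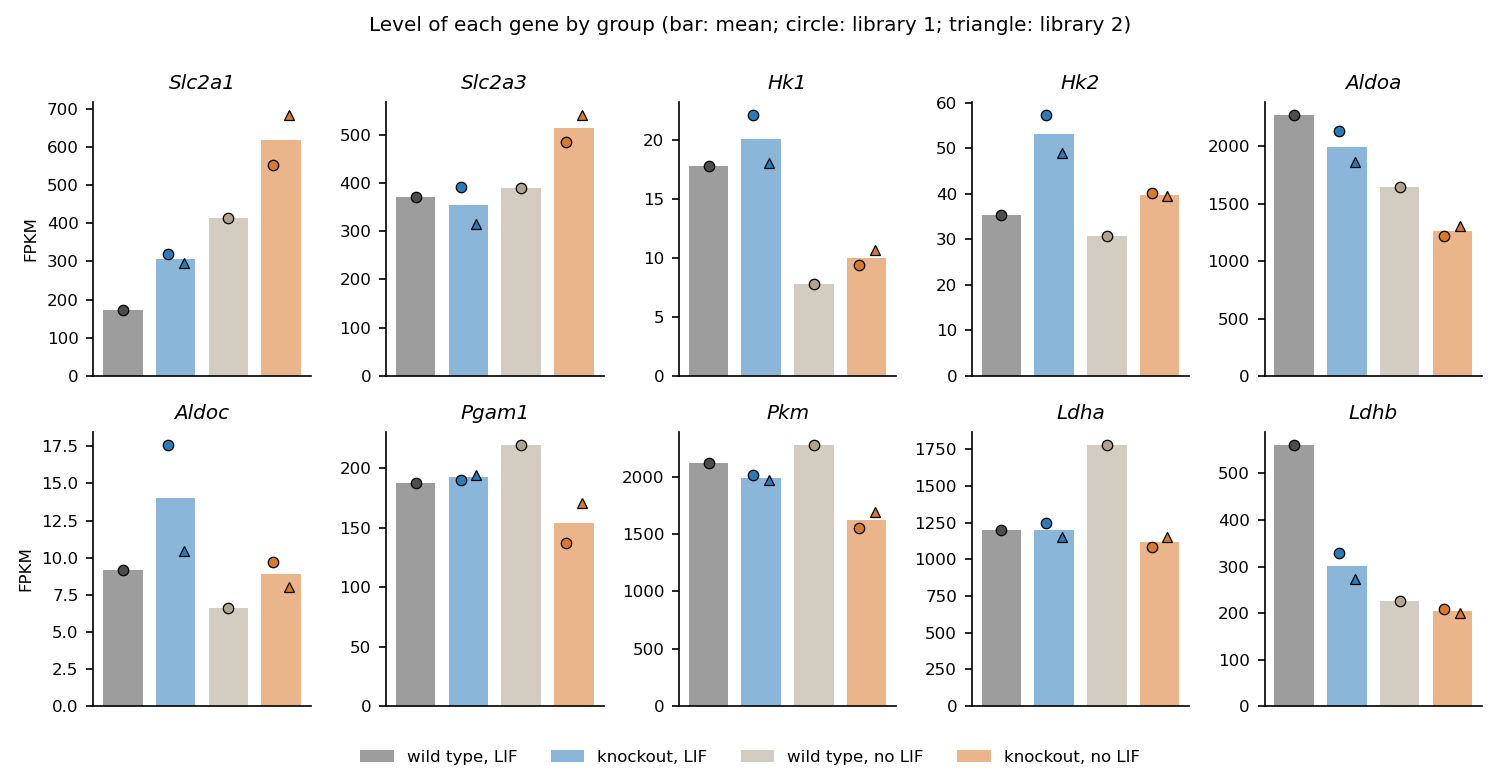
FPKM (vertical axes, each starting at 0) of the 10 genes in the 4 groups; bars are means, circles and triangles are libraries 1 and 2, and WT groups are 1 library each. Slc2a1 is higher without LIF than with LIF in both genotypes, at 413 to 684 against 174 to 319 FPKM, and Hk1, Aldoa and Ldhb are lower without LIF.

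After LIF removal, Slc2a1 rose and Hk1, Aldoa and Ldhb fell over both genotypes, while the other 6 genes did not pass the test. In other words, 1 of 10 was called higher, where 8.73% of all 11785 tested genes were called higher, and 3 of 10 lower, where 12.7% of all were. The median difference of the 10 was -0.25 on the log2(FPKM + 1) scale, against -0.03 over all tested genes. These counts come from limma with genotype and medium as added terms, at a Benjamini-Hochberg adjusted p under 0.05, and all log2 differences below are on the log2(FPKM + 1) scale, which understates the change of genes with low values. In knockout cells alone, Slc2a1 was called higher and Hk1 and Aldoa lower (1 and 2 of 10, with 3.05% and 3.88% of all tested genes called higher and lower). Without knockout library 2 of the medium without LIF, 0 of the 10 were called in knockout cells, and without knockout library 1 of either medium only 1 was. In WT cells, where 1 library is compared with 1 and there is no test, an absolute log2 difference of at least 1 was reached by 3 of the 10, namely Slc2a1 upward and Hk1 and Ldhb downward, and by 8.36% of all tested genes.

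Between knockout and WT cells over both media, Slc2a1 and Hk2 were higher in the knockout and the other 8 genes did not pass. That is 2 of 10 called higher, where 5.79% of all tested genes were, and 0 of 10 called lower, where 4.67% were; limma gave 5 of the 10 an unadjusted p under 0.05, as it did 27.7% of all tested genes. The median difference was -0.04 for the 10 and -0.03 for all tested genes. Neither call stood when a WT library was left out: without either one, 0 of the 10 were called, and only 7 or 5 of all 11785 genes. Within a medium, limma called 0 of the 10 in either medium (0.0424% of all tested genes with LIF and 0.0594% without), with 3 and 5 of the 10 at an unadjusted p under 0.05, against 16.7% and 15.5% of all tested genes. The difference between the knockout and WT responses to LIF removal gave 0 calls among the 10 and 0% among all tested genes in limma, with 2 of the 10 and 340 of all genes at an unadjusted p under 0.05. The knockout comparisons share the WT library of each medium, and the responses to LIF removal share libraries with them, so they are not independent of each other.

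Slc2a1 (chromosome 4, 119108711 to 119137983), the most widespread glucose transporter, had the largest spread over the 6 libraries. It stood at 174 FPKM in WT with LIF, at 319 and 296 in knockout with LIF, at 413 in WT without LIF and at 553 and 684 in knockout without LIF. Every library without LIF was above every library with LIF, and within each medium both knockout libraries were above WT. Slc2a1 ranked 474 among all symbols in WT with LIF and 62 in knockout library 2 without LIF.

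Over both genotypes Slc2a1 rose after LIF removal by 1.08 in log2 (SE 0.11, a 2.11-fold change, limma adjusted p = 0.00148), and the call stood in all 13 alternative settings. The rise was 0.9995 in knockout cells (SE 0.14, adjusted p = 0.0213) and 1.24 between the lone WT libraries. The knockout difference over both media was 0.70 (SE 0.12, 95% interval 0.42 to 0.97, limma adjusted p = 0.0153), and it was 0.82 with LIF and 0.58 without, neither called within its medium (limma adjusted p = 0.111 and 0.199). Without the WT library with LIF this adjusted p was 0.197, without the other WT library 0.111, and without a filter on low genes 0.0581. The 89 tested genes within 5 Mb of Slc2a1 on chromosome 4 had median knockout differences between -0.13 and 0.02 in the 4 knockout libraries, where the gene itself differed by 0.42 to 0.87.

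In the RefSeq window before its start (build GRCm38.p6), Slc2a1 has a single copy of the letters ACGTG. They are a form of the core of the hypoxia response element and, with a C in front, make the CACGTG E-box. The other form of that core, GCGTG, was not searched, so the core below means ACGTG alone, on either strand. All starts named with these letters are RefSeq starts, which for Slc2a1, Aldoa and Ldha lie inside the GENCODE span of the gene. The Slc2a1 stretch thus spans the GENCODE start at 119108711. The stretches below, 30 bases each and read 5′ to 3′ on the gene's strand, show that core in capitals in 4 of the genes, as ACGTG or its reverse complement CACGT, so that the letters can be seen in place.
Slc2a1, chr4:119108697-119108726, plus strand, 36 bases before the start: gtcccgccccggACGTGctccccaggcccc
Hk2, chr6:82774663-82774692, minus strand, 226 bases before the start: agccacggaacaCACGTcccaactctggcg
Hk2, chr6:82774489-82774518, minus strand, 52 bases before the start: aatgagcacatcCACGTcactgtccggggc
Aldoa, chr7:126799363-126799392, minus strand, 126 bases before a start: tgtggctcgagtCACGTcctagcggggcgg
Pgam1, chr19:41911745-41911774, plus strand, 114 bases before the start: cgctccttgcttACGTGcgctccgtgactg

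A window of 300 bases (250 before to 50 after a start) was matched to 9 genes. Of these, 8 held ACGTG on either strand in at least 1 window, Ldhb being the exception. Of all 27025 symbols with such a window in RefSeq, 21.8% held it, and among 9459 symbols tested here 30.1%. Most of these windows are rich in G and C: of the 9 windows of these genes with at least 60% GC, 8 held the core, against 26.5% of 9690 such windows over all genes. Overlapping Aldoa windows share a single core, which is counted for each. The 9 genes have 15 windows and the 27025 symbols 32851, so these genes had more windows each in which to match. The longer CACGTG was found only in Ldha, against 8.09% of all symbols, and TATAAA only in Slc2a1, against 15.7%. A match is a description of these letters and not of binding, and the genes that hold the core rose, fell or were not called: after LIF removal Slc2a1 rose, and Hk1 and Aldoa fell.

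Slc2a3 (chromosome 6, 122727809 to 122801640), the high-affinity glucose transporter of neurons and early embryos, was the more abundant of the transporter pair in WT with LIF. Its level was 372 FPKM there, 392 and 316 in knockout with LIF, 389 in WT without LIF, and 485 and 541 in knockout without LIF. The knockout libraries without LIF were the highest, and the 2 WT libraries differed little. Slc2a3 was not called by limma on the values as deposited, without further scaling: the difference after LIF removal was 0.38 (SE 0.13, adjusted p = 0.0774) over both genotypes, 0.54 (SE 0.14, adjusted p = 0.0715) in knockout cells and 0.07 between the WT libraries. With quantile normalization it was called higher after LIF removal, at 0.53 over both genotypes (adjusted p = 0.0298) and 0.69 in knockout cells (adjusted p = 0.0455). The knockout difference was -0.08 with LIF and 0.40 without, neither called, with 95% intervals of -0.50 to 0.34 and -0.02 to 0.82. Its 77 neighbours within 5 Mb had median knockout differences between -0.05 and 0.06.

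Hk1 and Hk2 encode the hexokinases that phosphorylate glucose at the mitochondrial surface; Hk1 is the housekeeping form and Hk2 the form of insulin-responsive and fast-growing cells. Hk1 (chromosome 10, 62268855 to 62379908) stood at 17.8 FPKM in WT with LIF, at 22.2 and 18.1 in knockout with LIF, at 7.76 in WT without LIF, and at 9.43 and 10.7 in knockout without LIF. All 3 libraries without LIF were below all 3 with LIF. It fell by 0.99 in log2 over both genotypes (SE 0.13, a 1.98-fold difference, limma adjusted p = 0.00311), a call that stood in all 13 alternatives. In knockout cells alone the difference was -0.93 (SE 0.17, adjusted p = 0.0334), and between the WT libraries -1.10. The knockout difference of 0.25 over both media (SE 0.14, 95% interval -0.08 to 0.57) did not pass.

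Hk2 (chromosome 6, 82725025 to 82774454) stood at 35.4 FPKM in WT with LIF, at 57.3 and 48.9 in knockout with LIF, at 30.8 in WT without LIF, and at 40.1 and 39.5 in knockout without LIF. All 4 knockout libraries were above both WT libraries, and in each genotype the libraries without LIF were below those with LIF. The knockout difference over both media was 0.46 (SE 0.12, limma adjusted p = 0.0435), and the call was lost in 8 of 12 alternatives, with adjusted p up to 0.374. It was lost whichever library was left out. The 60 tested genes within 5 Mb of Hk2 on chromosome 6 moved the same way: their median knockout difference was 0.63 to 0.74 in the 4 knockout libraries, where Hk2 itself differed by 0.35 to 0.68. Relative to those neighbours Hk2 lay between -0.39 and 0.05. Over the 531 other tested genes of chromosome 6 the median was 0.09 to 0.17; the part of this stretch in the Hk2 result was not tested. The difference after LIF removal, -0.34 (SE 0.11, adjusted p = 0.0639), did not pass.

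**Figure D2:**
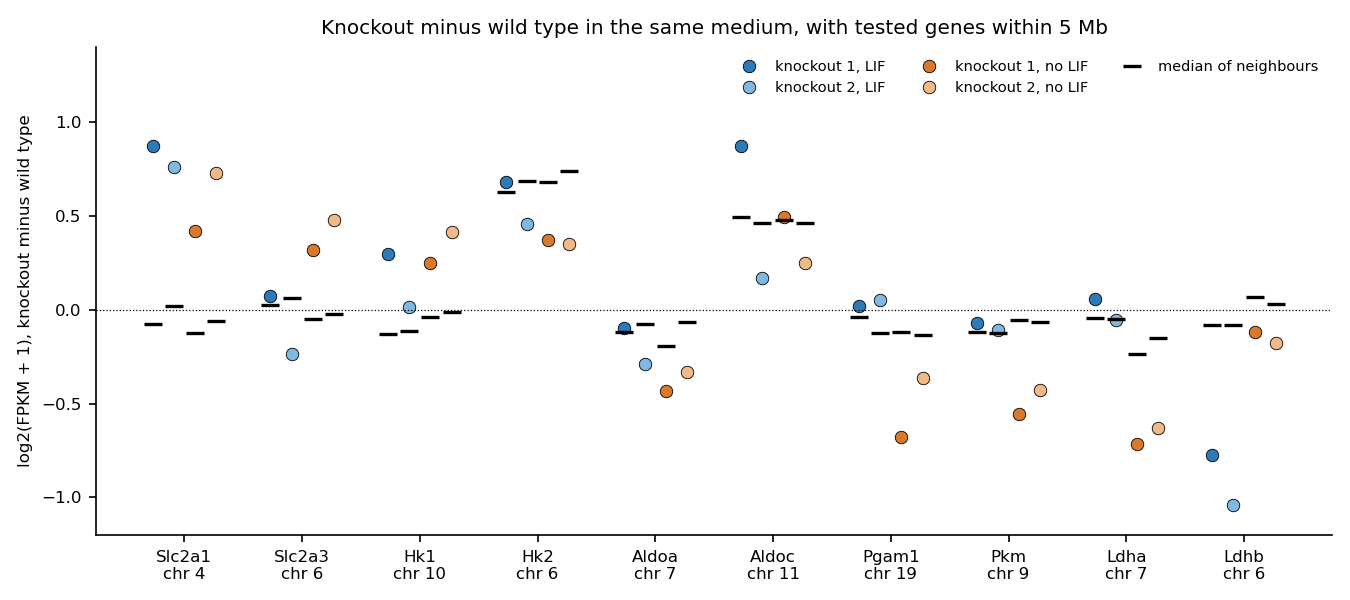
Knockout minus WT in the same medium (vertical axis, log2(FPKM + 1)) for each gene with its chromosome; coloured points are the 4 knockout libraries and black dashes the median of all tested genes within 5 Mb. The dashes lie at 0.63 to 0.74 beside Hk2 and 0.46 to 0.50 beside Aldoc, and within -0.24 to 0.07 beside the other 8 genes.

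Aldolase splits fructose bisphosphate into its triose phosphates; Aldoa is the muscle and general form and Aldoc the brain form. Aldoa (chromosome 7, 126795234 to 126800751) stood at 2276 FPKM in WT with LIF, at 2130 and 1861 in knockout with LIF, at 1642 in WT without LIF, and at 1215 and 1303 in knockout without LIF. The libraries without LIF were all below those with LIF, and in each medium both knockout libraries were below WT. It fell by 0.60 after LIF removal over both genotypes (SE 0.10, a 1.51-fold difference, limma adjusted p = 0.00675), by 0.66 in knockout cells (SE 0.12, adjusted p = 0.0318) and by 0.47 between the WT libraries.

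The size of the Aldoa fall depended on scaling: with quantile normalization it was -0.20 (adjusted p = 0.154) over both genotypes and no longer called, and without a filter on low genes the adjusted p was 0.0532. The most abundant genes as a group were lower in the same libraries. Those averaging 500 FPKM or more, 97 genes, had a median difference after LIF removal of -0.39 in WT and of -0.29 and -0.27 in knockout 1 and 2, against -0.04, -0.02 and -0.03 for all tested genes. Between knockout and WT, the median of the 97 was between -0.31 and -0.23. The summed FPKM of a library ran from 456155 to 556318 and was highest in WT with LIF. What these values contribute to the differences of Aldoa, Pkm and Ldha was not tested. The knockout difference of Aldoa, -0.29 over both media (SE 0.11, limma adjusted p = 0.127), did not pass and became 0.03 with quantile normalization.

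Aldoc (chromosome 11, 78322968 to 78327781) stood at 9.16 FPKM in WT with LIF, at 17.6 and 10.4 in knockout with LIF, at 6.61 in WT without LIF, and at 9.74 and 8.04 in knockout without LIF. The knockout libraries of a medium were above its WT library, but they lay far apart with LIF (SD 5.07 FPKM, n = 2). The knockout difference of 0.45 (SE 0.21, limma adjusted p = 0.205) did not pass, nor did that after LIF removal, -0.52 (SE 0.19, adjusted p = 0.0945). Around Aldoc on chromosome 11 the 106 neighbours within 5 Mb were shifted upward in the knockout by 0.46 to 0.50, as was the rest of the chromosome, at 0.42 to 0.48 over 995 genes. Aldoc itself differed by 0.17 to 0.87 in the 4 knockout libraries, below its neighbours in library 2 of each medium and above them in library 1.

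Pgam1 (chromosome 19, 41911923 to 41918660) converts 3-phosphoglycerate to 2-phosphoglycerate. It was nearly level with LIF, at 188 FPKM in WT and 190 and 195 in knockout, and spread without LIF, at 220 in WT and 137 and 171 in knockout. WT was the highest library without LIF and the lowest with LIF. The knockout difference was 0.04 with LIF (95% interval -0.38 to 0.45) and -0.52 without (SE 0.17, limma adjusted p = 0.234), and neither passed.

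Pkm (chromosome 9, 59656368 to 59679375) encodes pyruvate kinase, the last step to pyruvate; its alternative exons give the M1 and M2 forms, which a value per gene cannot separate. It stood at 2117 FPKM in WT with LIF and 2276 in WT without LIF. Knockout libraries 1 and 2 held 2014 and 1967 FPKM with LIF, against 1551 and 1691 without. Both knockout libraries without LIF were below the other 4 libraries. The knockout difference was -0.09 with LIF and -0.49 without (SE 0.14, limma adjusted p = 0.175), and neither passed; over both media it was -0.29 and turned to 0.05 with quantile normalization.

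**Figure D3:**
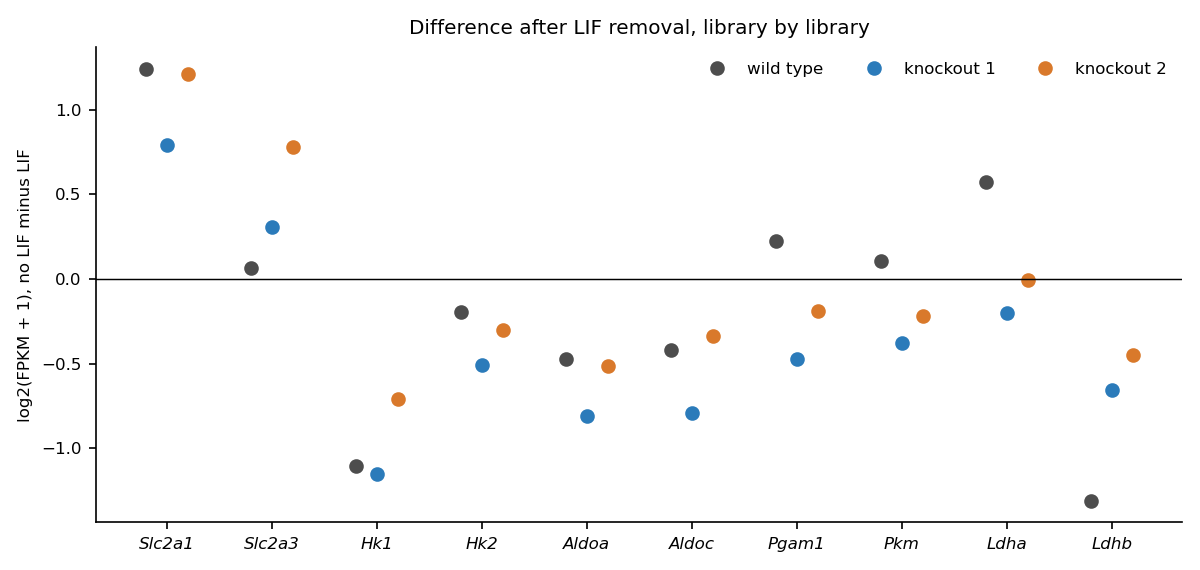
Log2(FPKM + 1) without LIF minus with LIF (vertical axis) for each gene, as 1 point each for WT, knockout 1 and knockout 2, libraries of the same number being subtracted. Slc2a1 and Slc2a3 lie above 0 and Hk1, Hk2, Aldoa, Aldoc and Ldhb below 0 in all 3, while Pgam1, Pkm and Ldha lie above 0 in WT and below 0 in both knockouts.

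Ldha (chromosome 7, 46841475 to 46855627) encodes the lactate dehydrogenase subunit that predominates in glycolytic tissue. It stood at 1196 FPKM in WT with LIF and 1245 and 1154 in knockout with LIF, so the groups overlapped. Without LIF it was 1778 in WT and 1082 and 1150 in knockout, with WT above every other library. The knockout difference was 0.00 with LIF (SE 0.14, 95% interval -0.32 to 0.33) and -0.67 without LIF (SE 0.14, 95% interval -0.9992 to -0.35, limma adjusted p = 0.144), and neither passed. The response to LIF removal was 0.57 between the WT libraries and -0.10 in knockout cells. The difference of the responses was -0.67 (SE 0.19, unadjusted p = 0.0110, limma adjusted p = 0.9996), and it rests on the 1 WT library in each medium.

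Ldhb (chromosome 6, 142490249 to 142507957) encodes the heart-type subunit. It stood at 561 FPKM in WT with LIF, at 328 and 272 in knockout with LIF, at 226 in WT without LIF, and at 208 and 200 in knockout without LIF. WT with LIF was far above every other library, and the libraries without LIF were all below those with LIF. Over both genotypes Ldhb fell by 0.80 in log2 after LIF removal (SE 0.16, a 1.75-fold difference, limma adjusted p = 0.0122). The call was lost without either WT library (-0.55, adjusted p = 0.0579 and 0.0571), which leaves the response to the knockout cells.

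The response of Ldhb was -1.31 between the WT libraries and -0.55 in knockout cells (SE 0.13, limma adjusted p = 0.0575); the difference of responses, 0.76 (SE 0.23, unadjusted p = 0.0139, adjusted p = 0.9996), did not pass. The knockout difference was -0.91 with LIF (SE 0.16, 95% interval -1.29 to -0.52, limma adjusted p = 0.0995) and -0.15 without, and over both media it was -0.53 (SE 0.17, adjusted p = 0.0885). None of these passed. The 29 tested genes within 5 Mb of Ldhb had median knockout differences between -0.08 and 0.07.

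The region before 1 start of each of the 2 lactate dehydrogenase genes is given whole. That of Ldha carries ACGTG, on either strand, most often among the windows of the 9 matched genes, and Ldhb is the only matched gene without it. The form GCGTG, which was not searched, can be read in the printed Ldhb letters. Both printed regions are 250 bases from RefSeq on GRCm38.p6, read on the gene's strand, with the core on either strand in capitals.
Ldha, chr7:46845554-46845803, plus strand: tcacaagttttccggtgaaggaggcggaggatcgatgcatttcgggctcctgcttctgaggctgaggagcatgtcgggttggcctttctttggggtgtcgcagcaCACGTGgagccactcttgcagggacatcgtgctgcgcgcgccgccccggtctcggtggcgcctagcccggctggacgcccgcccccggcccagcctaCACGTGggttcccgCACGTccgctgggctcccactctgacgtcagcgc
Ldhb, chr6:142507958-142508207, minus strand: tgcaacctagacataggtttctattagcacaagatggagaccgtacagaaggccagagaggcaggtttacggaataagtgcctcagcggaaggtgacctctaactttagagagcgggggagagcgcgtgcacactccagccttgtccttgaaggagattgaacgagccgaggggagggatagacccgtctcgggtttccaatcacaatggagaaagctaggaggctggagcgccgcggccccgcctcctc

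In the printed Ldha region the core starts 145, 48 and 34 bases before the start, and the farther 2 of these lie in a CACGTG. The Ldha stretch has 67.2% GC and the Ldhb stretch 56.4%. Ldha has a second RefSeq start, and the 250 bases before it (chr7:46846832-46847081, not printed) hold 0 copies of ACGTG on either strand, at 54.4% GC. As to the values, Ldha was not called in any comparison and Ldhb fell after LIF removal; no factor binding was measured here.

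The balance within each isozyme pair was compared as a ratio of FPKM, with an exact permutation test, two-sided, of the log2 ratio over libraries (8 tests). Ldhb stood at 0.469 of Ldha in WT with LIF, at 0.264 and 0.236 in knockout with LIF, at 0.127 in WT without LIF, and at 0.193 and 0.174 in knockout without LIF. The ratio was lower in every library without LIF, by 0.92 in log2 (exact p = 0.1, the smallest that 3 libraries against 3 can give, adjusted p = 0.2). As a share of the summed FPKM of both genes, Ldhb made up 31.9% in WT with LIF and 11.3% to 20.9% in the other libraries. Knockout and WT overlapped (exact p = 0.8): the knockout ratios lay between the 2 WT values.

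Slc2a3 exceeded Slc2a1 by 2.14 times in WT with LIF and by 1.23 and 1.07 times in knockout with LIF, while without LIF the ratio was 0.942 in WT and 0.876 and 0.791 in knockout. It was lower in every library without LIF, by 0.70 in log2 (exact p = 0.1, the smallest possible, adjusted p = 0.2). The summed FPKM of both transporters went from 545 in WT with LIF and 711 and 611 in knockout with LIF to 801 in WT and 1038 and 1226 in knockout without LIF. Hk2 exceeded Hk1 in every library, by 1.99 to 2.71 times with LIF and by 3.70 to 4.25 times without (0.65 in log2, exact p = 0.1, adjusted p = 0.2). Aldoc was at most 0.00826 of Aldoa. That ratio was higher in all 4 knockout libraries, at 0.00560 to 0.00826, than in the 2 WT libraries, at 0.00402 and 0.00403 (0.73 in log2, exact p = 0.0667, the smallest that 4 against 2 can give, adjusted p = 0.2). In the knockout the neighbours of Aldoc had median differences of 0.46 to 0.50, and genes as abundant as Aldoa, averaging 500 FPKM or more, of -0.31 to -0.23. The part of these shifts in the ratio was not tested.

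**Figure D4:**
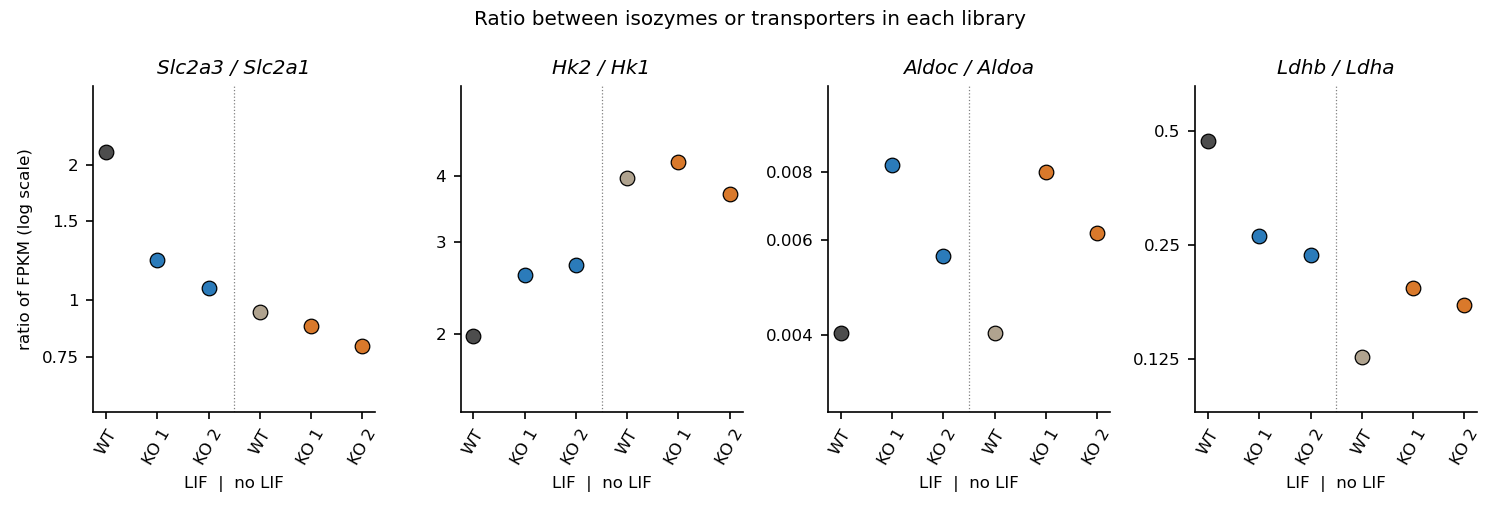
Ratio of FPKM within each isozyme pair (vertical axes, log scale) in the 6 libraries, with LIF left and without LIF right of the dotted line. Ldhb to Ldha falls from 0.469 in WT with LIF to 0.127 in WT without LIF, and the 4 knockout libraries lie between these values.

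Other genes of the pathway were taken from fixed lists. Of 22 further enzymes of the pathway, 14 were tested. After LIF removal 0 of the 14 were called higher and 3 lower by limma, where 8.73% and 12.7% of all tested genes were. The 3 were Pfkp, a phosphofructokinase (-1.22, limma adjusted p = 0.0130), Eno2, the neuronal enolase (-0.66, adjusted p = 0.0280), and Ldhc, the testis lactate dehydrogenase (-0.69, adjusted p = 0.0322). Levels were low for Eno2, at 1.55 to 3.94 FPKM, and for Ldhc, at 1.16 to 7.35 FPKM. The median of the 14 was -0.33 and 12 were negative. Between knockout and WT, limma called 5.79% of all tested genes higher and 4.67% lower. Of the 14, Ldhc was higher (1.29, adjusted p = 0.0111) and Pgk1, which makes the first ATP of the lower pathway, was lower (-0.77, SE 0.18, adjusted p = 0.0376). Pgk1 stood at 218 FPKM in WT with LIF, 176 and 136 in knockout with LIF, 210 in WT without LIF and 86.2 and 119 in knockout without LIF, so all 4 knockout libraries were below both WT libraries.

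Gapdh, the enzyme between aldolase and Pgk1, is listed at only 1.11 to 2.58 FPKM, and 74 annotated pseudogenes share at least 95% identity over 300 bases with its transcript. By the same search, Slc2a1, Slc2a3, Hk1, Hk2, Aldoa and Aldoc have 0 such copies, Pgam1, Pkm and Ldhb 1 each, Ldha 3 and Pgk1 4, so the values of these last genes are less certain. Pfkp shares a transcript stretch with Pitrm1, and its value is uncertain too. Eno1 shares such a stretch with Eno1b, so their values may not be separate. Both count among the further enzymes tested above, as does Gapdh.

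Of the 2 other glucose transporters tested, Slc2a8 and the fructose transporter Slc2a5, both fell after LIF removal (-0.76, adjusted p = 0.00519, and -0.65, adjusted p = 0.0496, limma). Slc2a5 was higher in the knockout (0.97, limma adjusted p = 0.0268), but its level was only 0.26 to 3.26 FPKM, near the minimum for testing. Of the 4 transporters tested in all, only Slc2a1 was called higher without LIF. Of 7 tested genes that throttle or open glycolysis, 1 was called higher and 2 lower after LIF removal, where 8.73% and 12.7% of all tested genes were. Pfkfb3, which makes the activator of phosphofructokinase, rose by 1.06 (SE 0.23, adjusted p = 0.0170), from 2.44 FPKM in WT and 5.90 and 5.41 in knockout with LIF to 7.92 in WT and 8.23 and 15.9 in knockout without LIF. Tigar, which degrades that activator, fell by 0.79 (SE 0.11, adjusted p = 0.00375).

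Txnip, which lowers glucose uptake through transporters, fell by 1.74 after LIF removal (SE 0.33, limma adjusted p = 0.0104). Its level was 175 FPKM in WT and 285 and 112 in knockout with LIF, and 32.0 in WT and 70.0 and 64.8 in knockout without LIF. The libraries without LIF were all below those with LIF, the reverse of Slc2a1. None of the 7 was called in the knockout comparison by limma, where 2 had an unadjusted p under 0.05 (27.7% of all tested genes had); the lowest adjusted p was 0.0953 for Fbp2 and 0.104 for Pfkfb3.

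**Figure D5:**
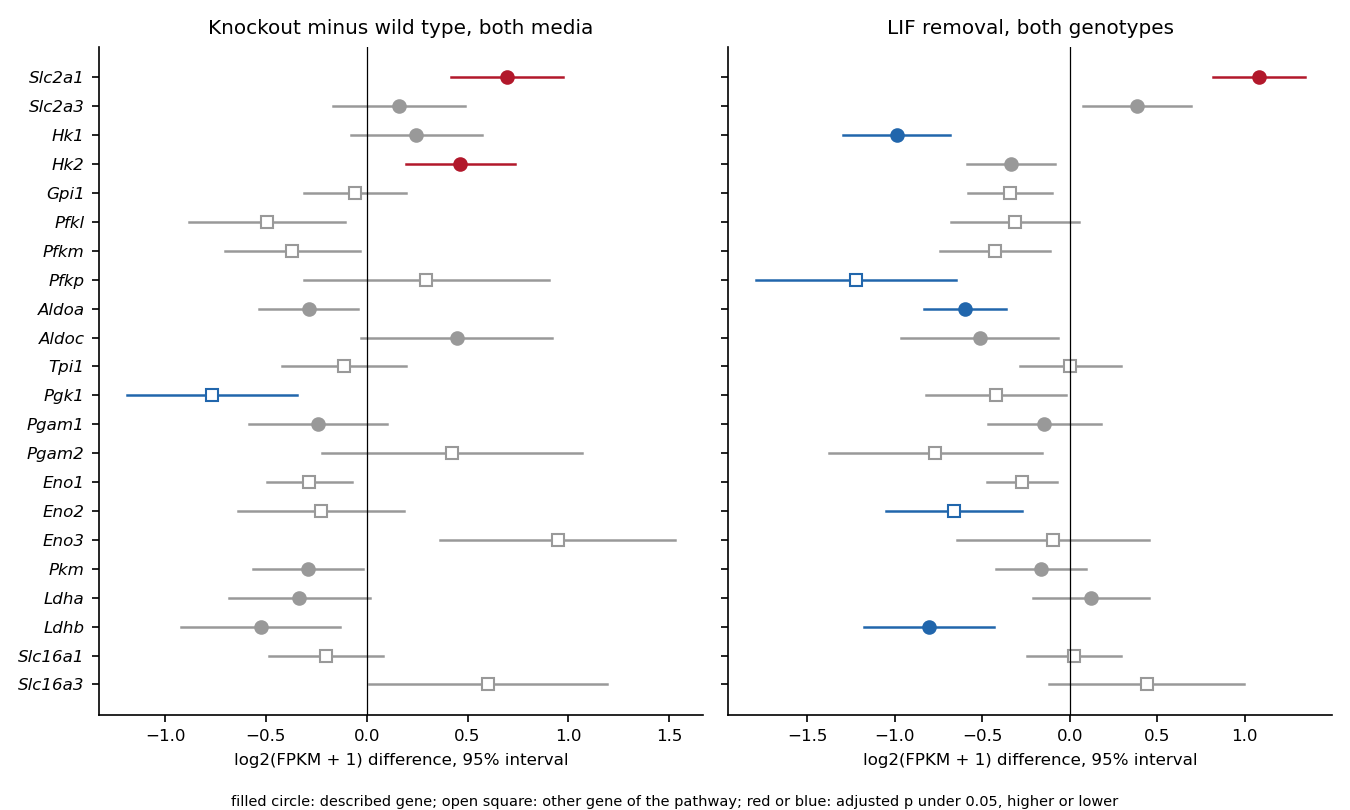
Log2(FPKM + 1) differences (horizontal axes, with 95% intervals as lines) of the 10 genes (filled circles) and other genes of the pathway and lactate export (open squares) in order of their step, between knockout and WT over both media (left) and after LIF removal over both genotypes (right). Red and blue mark genes called higher and lower by limma; Slc2a1 lies at 0.70 and 1.08, Pgk1 at -0.77 on the left and Pfkp at -1.22 on the right.

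Of 17 tested genes that handle pyruvate or lactate, 0 were called higher and 1 lower in the knockout, Pdha1 of the pyruvate dehydrogenase complex (-0.53, limma adjusted p = 0.0327), and 1 was called after LIF removal, Emb, a partner of lactate transporters (0.50, adjusted p = 0.0176). Of all tested genes, limma called 5.79% higher and 4.67% lower in the knockout, and 8.73% higher and 12.7% lower after LIF removal. Pdha1 stood at 177 FPKM in WT with LIF and at 93.6 to 122 in the other 5 libraries, a pattern with WT with LIF on top as for Ldhb. Of 8 tested genes of the pentose phosphate pathway, which branches off after hexokinase, 3 fell after LIF removal: Taldo1 (-0.52, adjusted p = 0.00847), H6pd (-0.53) and Tkt (-0.36). Taldo1 was also lower in the knockout (-0.45, adjusted p = 0.0308), and the median knockout difference of the 8 was -0.39.

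Of 17 tested hypoxia targets outside glycolysis, P4ha2, a collagen hydroxylase subunit, and Kdm3a, a histone demethylase, were higher in the knockout (0.66, limma adjusted p = 0.0350, and 0.72, adjusted p = 0.0188), and Vegfa, the vascular growth factor, was lower (-0.72, adjusted p = 0.0116). Both of the higher genes lie among neighbours that were shifted upward in the 4 knockout libraries. The 83 tested genes within 5 Mb of P4ha2 on chromosome 11 had medians of 0.37 to 0.49, where P4ha2 differed by 0.51 to 0.89. The 34 around Kdm3a on chromosome 6 had medians of 0.52 to 0.77, where Kdm3a differed by 0.55 to 0.99. The part of these stretches in the calls was not tested. Around Vegfa the medians were -0.07 to -0.01. Vegfa stood at 43.0 and 37.7 FPKM in the WT libraries and at 21.3 to 27.7 in the knockout libraries, without overlap. The median of the 17 was 0.05, with 9 members positive and 8 negative. In the knockout, 5.79% of all tested genes were called higher and 4.67% lower. After LIF removal only Mxi1, a Myc antagonist, was called (-0.66, limma adjusted p = 0.0173), where 8.73% of all tested genes were called higher and 12.7% lower.

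Of 16 tested regulators of these genes, 0 were called in the knockout by limma, where 3 had an unadjusted p under 0.05 (27.7% of all tested genes had); Stat3, the effector of LIF, had the lowest adjusted p, 0.0727, at 0.48. After LIF removal 1 of the 16 was called higher and 4 lower, where 8.73% and 12.7% of all tested genes were. Lin28b, an RNA-binding protein that acts on glucose metabolism, rose by 0.84 (adjusted p = 0.00519). Esrrb, a nuclear receptor of naive pluripotency, fell by 1.77 (adjusted p = 0.00230), Epas1, a hypoxia-inducible factor subunit, by 0.96 (adjusted p = 0.00772), and Hnrnpa1, a splicing factor, by 0.51 (adjusted p = 0.0275). Arnt, the remaining gene of the 4 called lower, fell by 0.41 (limma adjusted p = 0.0361). Hif1a lay between 43.9 and 58.3 FPKM in all 6 libraries. Its difference was 0.05 after LIF removal (adjusted p = 0.776) and -0.23 in the knockout (adjusted p = 0.231).

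The same libraries changed in cell state. Of 8 markers of pluripotent cells, 5 fell after LIF removal, among them Sox2 (-0.94, limma adjusted p = 0.00201), Zfp42 (-1.23), Pou5f1 (-0.55) and Utf1 (-0.55). The other 3, Lin28a (0.28), Tdgf1 (0.22) and Sall4 (0.01), had positive differences and were not called. The summed level of these 8 markers went from 2815 to 3229 FPKM with LIF to 1938 to 2450 without. Of 8 genes that mark the exit from the naive state 3 rose and 4 fell, led by Fgf5 at 3.56. The counts of both lists stand beside 8.73% of all tested genes called higher and 12.7% called lower after LIF removal. Of 8 primitive endoderm markers 4 were tested. Dab2 rose after LIF removal (1.57, adjusted p = 0.00693), and Sparc was higher in the knockout (1.03, adjusted p = 0.0426). Of the 4, 3 had positive knockout differences and 1, Lamb1, a negative difference (-0.53, limma adjusted p = 0.0550). Only Sparc was called there. Sparc differed by 0.52 to 1.51 in the 4 knockout libraries, and its 92 neighbours on chromosome 11 had medians of 0.36 to 0.49. The summed level of the 8 ran from 77.7 to 216 FPKM, mostly Sparc, with 1 at 0 in every library. The 8 markers of fibroblast feeders summed to 3.39 to 8.64 FPKM, with 3 at 0 in some library. In these bulk samples fewer cells of a type and less RNA per cell cannot be told apart, and the part of changed cell state in the values above was not tested.

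For the 3 genes with the largest spread, the tested genes with the most similar pattern over the 6 libraries were listed by Pearson's r, as a description over 8294 candidates that share these libraries. Slc2a1 was closest to E2f6 (r = 0.988), Vwa5a (0.986), Ikbkb (0.985) and Gsto1 (0.984). Hk1 was closest to Mcat (0.997), Cirbp (0.997), Bloc1s4 (0.995) and Rab5b (0.992). Ldhb was closest to Dpp7 (0.995), Npm3 (0.994), Nfkbia (0.993) and Zbtb43 (0.990). Nfkbia, like Ldhb, stood highest in WT with LIF, at 65.4 FPKM against 33.3 and 30.4 in knockout with LIF, 23.9 in WT without LIF, and 21.8 and 18.9 in knockout without LIF.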

How the data were processed

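The authors deposited a table of FPKM per gene symbol for 6 libraries, with 0 further sample columns. STAR, Cufflinks and the build mm10 are named, per the submitters' processing notes. Not given in the sources used here are their versions, the annotation and any use of strand. The labels also name a table of raw counts, which was not used here. FPKM holds no read counts, so the depth behind a value is unknown here and no counting interval is given. From the deposited FPKM, log2(FPKM + 1) was tested with limma 3.58.1 in R 4.3.3 (two-sided, intensity trend) for genes averaging 1 FPKM or more, with Benjamini-Hochberg adjustment over 11785 genes. A fit with genotype and medium as added terms has 3 residual and 5.08 prior degrees of freedom, and a fit with 4 groups has 2 and 4.70; each lone WT library is assumed to vary like the others. WT cells without and with LIF were compared without a test.

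The members and 11 lists were chosen with earlier results of these data known. All 10 members are named, and of other lists the genes called, or up to 4 with the lowest p where none or more than 4 were called. Genes most like a member average 5 FPKM or more. Gapdh, Eno1, Eno1b, Hif1a, Arnt, Lamb1, Lin28a, Tdgf1 and Sall4 were named after their values were seen. Positions are from GENCODE on GRCm38; 11567 of 11785 tested genes matched 1 position. Promoter letters are from RefSeq on GRCm38.p6 (9 of 10 members matched). Copies were sought with blastn 2.17.0.

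The fits were tested on simulated data with 200 of 11785 genes changed in 20 draws. A log2 change of 1 was recovered in 74.8% of genes between knockout and WT over both media, in 78.9% after LIF removal over both genotypes and in 33.4% after LIF removal in knockout cells; a change of 0.5 was recovered in 0% in each. Of the calls made at a change of 1, 5.50%, 5.03% and 5.98% were false, in the same order. At 0.5, all calls made between knockout and WT were false (100%), a share given without the number of calls behind it. In the data more genes were called than were changed in the simulation: 1232, 2523 and 816 of 11785, in the same order. The adjustment is less strict then, so the recovered shares do not carry over to the data. Differences under 0.5 were called there, such as Hk2 at 0.46 between knockout and WT. Alternatives were another pseudocount, other filters, quantile and median ratio scaling, no trend, each library left out, only the compared groups and a replicate block.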

Additional observations from a re-analysis of the deposited data

How the results depend on the processing

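Over 730 alternative values of single genes, 679 kept direction and side of the threshold, 27 lost a call, 8 gained one and 16 changed sign, all of the last small and uncalled; where no value shows a cause, the cause was not tested. The count of 2 members called between knockout and WT over both media was 0 without a filter on low values (18091 genes tested, 335 called in all against 1232), 1 without the intensity trend, and 0 to 1 with a library left out. All genes called there numbered 7 without WT with LIF, 5 without WT without LIF and 560 without knockout library 2 with LIF. The 4 calls after LIF removal over both genotypes were 3 to 6 throughout. The 3 calls after LIF removal in knockout cells were 0 without the filter and 0 to 3 with a library left out, 0 without knockout library 2 without LIF and 1 without library 1 of either medium. Counts in either medium alone and of the difference of responses were 0 throughout.

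With the knockout number as a replicate block, 6 members were called in knockout cells (2 higher, 4 lower, with Slc2a3, Aldoc and Ldhb joining). Of all 11785 genes, 2615 were then called there, against 816 without the block. Over both genotypes 6 members were called with the block, and 3516 of all genes against 2523 without it. Knockout 1 minus 2 correlated between media across 11785 genes (r = 0.37, 2 pairs), but the labels do not say what the number marks.

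Signs turned with quantile normalization for the knockout difference over both media of Aldoa (0.0290) and Pkm (0.0533), that with LIF of Slc2a3 (0.0194), Aldoa (0.182) and Pkm (0.294), and LIF removal for Pkm (0.194 over both genotypes, 0.0342 in knockout) and Ldha (0.0916 in knockout). With a library left out, the knockout difference over both media ranged from -0.0793 to 0.397 for Slc2a3, -0.519 to 0.0362 for Pgam1 and -0.672 to 0.00219 for Ldha, the sign turning without WT without LIF. LIF removal for Ldha ranged from -0.103 (without either WT library) to 0.217. The knockout difference with LIF ranged from -0.234 to 0.0756 for Slc2a3 and -0.0527 to 0.0571 for Ldha, and the difference of responses of Aldoc from -0.499 to 0.204, with the sign set by which knockout library with LIF was left out. Isozyme ratios kept their direction with a pseudocount of 0.1. Depth is unknown, so precision was read from the spread between libraries and the prior of limma. In the fit with genotype and medium as added terms, that spread includes any difference in response between the genotypes.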
